A study of Mus musculus with 31 samples.

Results

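The 10 Polycomb group genes described here were Ezh2, Ezh1, Suz12, Eed, Rnf2, Ring1, Bmi1, Cbx2, Cbx7 and Cbx8, which encode the enzymes, scaffolds and readers of Polycomb repressive complexes 1 and 2 (PRC1 and PRC2). They were taken by symbol from the 18194 genes of an Affymetrix mouse expression array, and all 10 were measured. Where a gene had several probe sets with 1 gene symbol each, the one that was brightest on average across the 31 arrays was taken. Values are the deposited log2 intensities, on which a difference of 1 is a 2-fold difference in signal. Brightness depends on the probes, so levels were compared between samples of 1 gene and not between genes.

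The study compared neural stem cells (NSC) of the postnatal mouse brain with cultures and tissue of medulloblastoma, a tumour of the cerebellum. All mice were C57BL/6. NSC were grown from the subventricular zone (SVZ), the IV ventricle and the white matter of the cerebellum at postnatal day 7, with 3 arrays for each region. The samples called cancer stem cells by the submitters were grown from medulloblastomas of mice heterozygous for Ptch, an inhibitory receptor of the Sonic hedgehog pathway. Of these, 8 lines came from Ptch het p53 wt mice and were matched to the tissue of the same 8 tumours, and 2 tumours came from Ptch het p53 het mice, with 3 technical arrays for each tumour. The age of the tumour mice was not analysed here. All cultures were neurospheres in EGF and FGF2, collected a few days after plating, and the tissue was not cultured. The technical arrays were averaged, which left 27 samples. Hindbrain NSC below are the 6 IV ventricle and cerebellar cultures, entered as the mean of their 2 group means. A culture from 1 tumour is 1 sample, so the p53 het group rests on 2 tumours. Nothing in the labels says that the 3 NSC cultures of a region came from separate animals, so the p-values measure the spread between these samples, which may be technical.

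Polycomb proteins keep genes silent through marks on histones. PRC2, built from EED, SUZ12 and either EZH2 or EZH1, methylates histone H3 to make H3K27me3, and PRC1, built on RING1 or RNF2 with a partner such as BMI1, ubiquitinates histone H2A, while the CBX proteins bind H3K27me3. EZH2 is typical of dividing cells and EZH1 of cells that have left the cycle. In neural stem cells and cerebellar granule neuron precursors, the cells from which hedgehog medulloblastoma arises, BMI1 is known for sustaining self-renewal by repression of the Cdkn2a locus.

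The labels were set against cell type markers. Nes and Sox2, markers of neural stem cells, were bright in the NSC (group means 9.17 to 9.47 and 9.86 to 9.88) and in the p53 wt lines (8.91 and 10.03). In the p53 het cultures Nes was lower, at 6.86, while Sox2 stayed bright, at 9.55. There 7 of 9 neural stem cell markers were called lower than in the p53 wt lines. Atoh1 and Gli1, which mark granule neuron precursors and active hedgehog signalling, averaged 7.90 and 7.13 in the tissue but 2.45 and 2.09 in the p53 wt lines and 2.53 and 2.33 in the p53 het cultures, close to the NSC (2.22 to 2.32 and 1.88 to 1.93). The tissue also held other cells: the mean level of 8 microglia and macrophage markers was 5.56 to 6.80, against 1.56 to 1.95 in all 19 cultures, and its 10 neuron markers averaged 7.94 to 9.10 against 3.39 to 4.68. Ptch1 averaged 8.17 to 8.32 in the 3 NSC groups, 6.63 in the p53 wt lines, 6.67 in the p53 het cultures and 8.26 in the tissue. Whether its probes lie in the altered part of the allele is not given in the sources used here, so these values check no genotype, and p53 itself was not analysed here. As a guide to the reading of an unexpressed gene, 3 Y-linked genes read 0.72 to 1.57 in 15 samples taken to lack them. The samples were picked by a reading under 2 of Eif2s3y, which is among the 3, so its values were capped in advance. The guide may not hold for other probes. Csf1r, a microglia marker, averaged 3.11 to 3.48 in the culture groups, and Rbfox3, a neuron marker, 3.72 to 4.12. The lowest group mean of any member was 3.28, for Cbx7 in SVZ cultures, so this guide does not show that Cbx7 was expressed.

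Across 8 comparisons, 7 of the 10 genes were called in at least 1 and Eed, Cbx7 and Cbx8 in none. A call is an adjusted p under 0.05 from limma over all 18194 genes. The share of all genes called in at least 1 comparison was not computed. Tissue against hindbrain NSC alone had 23.1% of all genes called higher and 28.0% lower, so 7 of 10 is not read as particular to these genes. Ezh1 and Bmi1 stood 2.89-fold and 2.26-fold higher in tissue than in hindbrain NSC, and Ezh1 was 2.34-fold lower in the lines than in their tissue. Between NSC of the 3 regions none of the 10 genes was called. Of all genes, 0.764% were called between IV ventricle and SVZ cultures, 1.10% between cerebellar and SVZ cultures and 0% between IV ventricle and cerebellar cultures. At an unadjusted limma p under 0.05, 1, 1 and 0 members and 1730, 2498 and 559 genes passed. In the p53 wt lines, 2 members were higher and 1 was lower than in hindbrain NSC, where 3.51% of all genes were called higher and 6.06% lower. In the p53 het cultures 1 member was higher and 0 were lower, against 13.8% and 13.0% of all genes. Against the p53 wt lines the p53 het cultures had 1 member higher and 1 lower, beside 14.5% and 11.8% of all genes. Lines against their own tissue had 1 member higher and 6 lower, with 26.6% of all genes higher and 23.1% lower. Tissue against hindbrain NSC had 5 members higher and 1 lower, with 23.1% and 28.0% of all genes. In a bulk tissue, fewer cells of a type and less RNA per cell cannot be told apart. The comparisons with hindbrain NSC share these NSC arrays, and those of the lines share the lines, so their values are given side by side. Each array has a date mark. The NSC share no mark with the p53 wt lines, the p53 het cultures or the tissue. Nor do the p53 het cultures share one with the lines. Date and group therefore cannot be told apart in those comparisons. Line and tissue share a mark in 4 of 8 tumours.

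**Figure D1:**
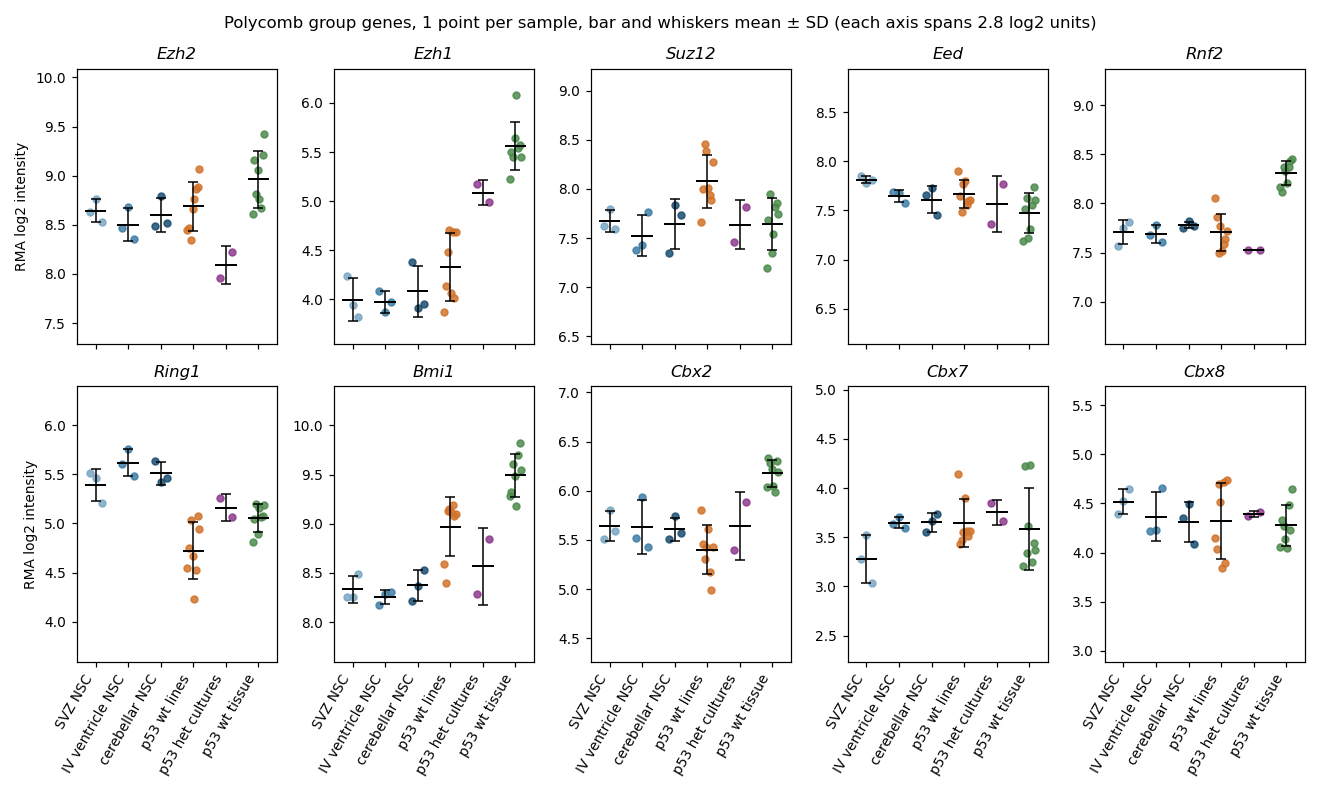
Log2 intensity of the 10 genes (y axis, RMA log2) in 6 groups (x axis), with 1 point per sample and the group mean ± SD as a bar with whiskers. Ezh1, Bmi1, Rnf2, Cbx2 and Ezh2 are highest in the tissue (group means 5.56, 9.49, 8.31, 6.18 and 8.96). Ring1 is lowest in the p53 wt lines (4.72). Eed, Cbx7 and Cbx8, with the narrowest ranges of group means beside Suz12, were called in no comparison.

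The span between the highest and the lowest of the 6 group means was widest for Ezh1, at 1.58, followed by Bmi1 (1.24), Ring1 (0.89), Ezh2 (0.87), Rnf2 (0.78) and Cbx2 (0.78). The 4 others spanned 0.55 (Suz12), 0.48 (Cbx7), 0.34 (Eed) and 0.24 (Cbx8), under the median of 0.61 over all genes. Promoters are shown for the members on which the results turn: Ezh2 and Ezh1, the alternative enzymes of PRC2 that moved apart in the p53 het cultures, and Suz12 and Bmi1, the members that were higher in the p53 wt lines than in hindbrain NSC. The windows, from RefSeq on GRCm38.p6, run from 250 bases before to 50 bases after the annotated start, 5′ to 3′ on the gene's own strand, and capitals mark a match to a searched motif. They lie at chr6:47594981-47595280 on the minus strand (Ezh2), chr11:101226414-101226713 on the minus strand (Ezh1), chr11:79992856-79993155 on the plus strand (Suz12) and chr2:18676768-18677067 on the plus strand (Bmi1). The annotated Ezh2 gene extends to 47595270. The start used for its window therefore lies inside the gene, and most bases before that start do too. The starts used for Ezh1, Suz12 and Bmi1 are the outer ends of their genes.
Ezh2: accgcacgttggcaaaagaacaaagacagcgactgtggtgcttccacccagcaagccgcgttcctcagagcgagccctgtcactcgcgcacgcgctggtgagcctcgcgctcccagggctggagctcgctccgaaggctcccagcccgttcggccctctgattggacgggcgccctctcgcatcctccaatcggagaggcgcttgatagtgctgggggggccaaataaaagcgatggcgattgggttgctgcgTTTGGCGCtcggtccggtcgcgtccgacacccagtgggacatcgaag
Ezh1: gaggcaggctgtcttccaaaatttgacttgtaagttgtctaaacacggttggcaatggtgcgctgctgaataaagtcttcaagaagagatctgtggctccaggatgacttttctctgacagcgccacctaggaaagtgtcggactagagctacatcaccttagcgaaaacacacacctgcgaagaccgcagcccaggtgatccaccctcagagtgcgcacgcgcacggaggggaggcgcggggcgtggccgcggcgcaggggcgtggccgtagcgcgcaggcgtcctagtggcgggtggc
Suz12: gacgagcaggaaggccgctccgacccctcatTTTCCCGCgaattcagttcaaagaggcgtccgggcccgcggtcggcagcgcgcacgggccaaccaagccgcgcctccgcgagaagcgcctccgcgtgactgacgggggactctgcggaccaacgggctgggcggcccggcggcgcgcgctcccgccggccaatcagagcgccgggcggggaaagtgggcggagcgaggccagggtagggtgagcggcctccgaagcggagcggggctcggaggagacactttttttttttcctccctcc
Bmi1: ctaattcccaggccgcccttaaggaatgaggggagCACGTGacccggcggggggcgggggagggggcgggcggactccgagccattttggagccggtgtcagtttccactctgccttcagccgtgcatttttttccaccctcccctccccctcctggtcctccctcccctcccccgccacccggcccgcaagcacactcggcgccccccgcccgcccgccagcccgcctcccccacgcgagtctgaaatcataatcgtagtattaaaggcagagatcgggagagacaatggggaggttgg

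Among the 10 genes, 9 matched a window in the table. On both strands, 3 motifs were searched, with no overlap between them: the E2F site of cell cycle genes in the letters TTTCCCGC, TTTCGCGC, TTTGCCGC or TTTGGCGC, the E-box CACGTG bound by MYC family factors, and the site GACCACCCA of the hedgehog factors GLI. The E2F letters occurred in 2 of the 9 windows, at 4 to 11 after the start of Ezh2 (TTTGGCGC) and at -219 to -212 of Suz12 (TTTCCCGC), against 2.26% of 32851 windows in the table. The E-box occurred in 2 of the 9, at -215 to -210 of Bmi1 and -98 to -93 of Cbx8, against 7.15% of all windows. The GLI letters were in 0 of the 9 and in 0.253% of all. The Ezh1 window held none of these letters. The 4 windows have GC contents of 64.3% (Ezh2), 59.3% (Ezh1), 71.0% (Suz12) and 66.3% (Bmi1), with 31, 23, 41 and 23 CpG.

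Ezh2, the main methyltransferase of PRC2 in dividing cells, was bright in every group and lowest in the p53 het cultures. It read 8.35, 8.50 and 8.79 in hindbrain NSC (lowest, median and highest of 6) and 8.53, 8.63 and 8.77 in the 3 SVZ cultures. In the p53 wt lines it read 8.34, 8.72 and 9.06 (lowest, median and highest of 8), and in their tissues 8.61, 8.93 and 9.42. The 2 p53 het cultures, at 7.95 and 8.23, lay below every other sample. Against the p53 wt lines they were 1.51-fold lower (log2 difference -0.60 ± 0.16 SE, adjusted p = 0.011, limma), with no overlap. Against hindbrain NSC the difference was -0.46 ± 0.17 and missed the threshold (adjusted p = 0.054, limma), although the groups did not overlap. Within tumour 27 the 3 technical arrays spanned 0.03 and within tumour B 0.22, less than the difference between the groups. Without tumour 27 the difference from the p53 wt lines was -0.46 ± 0.22 with an adjusted p of 0.175 (limma), and without tumour B it was -0.73 ± 0.22 with 0.0249. Of 17 proliferation markers, 5 were called lower and 0 higher in the p53 het cultures than in the p53 wt lines. Their mean level was 7.90 in tumour 27 and 8.64 in tumour B, and tumour B lay within the 8.49 to 8.89 of the lines. The 6 oligodendrocyte markers averaged 6.51 and 6.74 in the p53 het cultures and 5.21 to 5.63 in the lines, with 2 called higher and 1 lower. The part of these markers in the Ezh2 and Ezh1 differences was not tested.

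In the tissue Ezh2 was 1.33-fold higher than in hindbrain NSC (0.42 ± 0.13, adjusted p = 0.0133, limma), with overlapping groups. That call was lost with cerebellar NSC alone as the reference (0.37, adjusted p = 0.0791, limma). The lines were 1.21-fold lower than their tissue (-0.28 ± 0.10, adjusted p = 0.0348, limma), with 6 of 8 pairs lower and 2 higher. This last call is the least firm of the 7 between lines and tissue: it was lost when arrays were centred on their medians (-0.22, adjusted p = 0.108), without the pairing (adjusted p = 0.0887), and when tumour 74, 91, 92, 68 or 77 was left out (adjusted p = 0.0685 to 0.0832, limma). The p53 wt lines as a group did not pass the test against hindbrain NSC (0.14 ± 0.11, 95% interval -0.10 to 0.37).

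Ezh1, the second methyltransferase of PRC2, showed the opposite order to Ezh2 in the p53 het cultures and the widest range of the 10 genes. In hindbrain NSC it read 3.87, 3.96 and 4.38 (lowest, median and highest of 6), and in the SVZ cultures 3.82, 3.94 and 4.24. The p53 wt lines read 3.87, 4.31 and 4.71, overlapping the NSC, and the p53 het cultures 5.0 and 5.18, above every other culture. The 8 tissues read 5.23, 5.52 and 6.08, above all 19 cultures. The p53 het cultures were 2.08-fold above hindbrain NSC (1.06 ± 0.22, adjusted p = 0.00138, limma) and 1.69-fold above the p53 wt lines (0.76 ± 0.21, adjusted p = 0.0124, limma). The technical arrays spanned 0.53 within tumour 27 and 0.43 within tumour B. Without tumour 27 the difference from the p53 wt lines was 0.67 ± 0.29 with an adjusted p of 0.132 (limma), and without tumour B it was 0.85 ± 0.29 with 0.0489. For the p53 wt lines against hindbrain NSC, 0.30 ± 0.14 missed the threshold (adjusted p = 0.225, limma).

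Tissue stood 2.89-fold above hindbrain NSC in Ezh1 (1.53 ± 0.12, adjusted p = 4.36e-08, limma; 95% interval 2.42-fold to 3.43-fold). Each of the 8 lines was lower than its own tissue, by 0.77 to 2.02 on the log2 scale, and the mean difference was -1.23 ± 0.14 (adjusted p = 3.41e-05, limma). Tumour 83 held both the highest tissue value and the widest gap. The tissue's neuron and microglia markers were likewise absent from or low in the lines, with 8 of 10 and 8 of 8 called lower there, and their part in the Ezh1 difference was not tested. The other 3 probe sets of Ezh1, all dimmer (means 1.56 to 3.04), gave differences of -0.25 to -0.50 between lines and tissue, each called. In tissue against hindbrain NSC they gave 0.62, 0.56 and 0.15, the last not called, and with the mean of all probe sets the Ezh1 difference was 0.71 ± 0.06 (adjusted p = 1.71e-07, limma). By that mean the p53 het cultures were 0.60 above hindbrain NSC and 0.49 above the p53 wt lines, both called.

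Suz12, the scaffold that PRC2 needs for stability and activity, was the only one of the 10 genes called higher in the lines than in both tissue and hindbrain NSC. It read 7.35, 7.58 and 7.83 in hindbrain NSC (lowest, median and highest of 6), and 7.59, 7.62 and 7.80 in SVZ cultures. The lines read 7.66, 8.01 and 8.46, their tissues 7.19, 7.72 and 7.95, and the p53 het cultures 7.46 and 7.82. The groups overlapped throughout, with lines 74 and 77 highest at 8.46 and 8.39. Lines were 1.41-fold above hindbrain NSC (0.50 ± 0.13, adjusted p = 0.0192, limma) and 1.35-fold above their tissue (0.44 ± 0.10, adjusted p = 0.0051, limma), with the line higher in 8 of 8 pairs, by 0.03 to 1.04. In the 4 pairs that share a date mark the difference from tissue was 0.30 and not called (adjusted p = 0.101, limma), against 0.57 in the other 4 (0.029). The call against hindbrain NSC was lost with the date mark as a random block (adjusted p = 0.0825, limma). It was also lost with either hindbrain region alone as the reference (adjusted p = 0.144 for cerebellar and 0.0654 for IV ventricle NSC, limma). So it was without cerebellar replicate 1, IV ventricle replicate 1 or IV ventricle replicate 2 (adjusted p = 0.0607, 0.0534 and 0.0543, limma). Suz12 has 6 probe sets. Of these, 2 other bright ones (means 7.53 and 6.91) were also called higher in lines against hindbrain NSC, by 0.61 each. A dim one (mean 3.76) lay the other way, at -0.56 in lines against hindbrain NSC (adjusted p = 0.14, limma) and at -1.17 in tissue against hindbrain NSC, where it was called. With the mean of all probe sets of a gene, Suz12 in lines against hindbrain NSC was 0.27 ± 0.12 and not called (adjusted p = 0.178, limma).

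Eed, which binds H3K27me3 and holds PRC2 on it, was the steadiest of the bright members. Its group means ran from 7.47 in tissue to 7.81 in SVZ cultures, and each group overlapped the next in order. The SVZ cultures, at 7.78, 7.81 and 7.85, lay above all 6 hindbrain cultures (7.45 to 7.72), but the differences were not called (-0.17 and -0.20, adjusted p = 0.685 and 0.397, limma). Between lines and tissue Eed was higher in 4 pairs and lower in 4, with a mean of 0.20 ± 0.11 (adjusted p = 0.167, limma). In the 4 pairs whose line and tissue differ in date mark the line was higher in all 4, and the mean was 0.47 (adjusted p = 0.0341, limma), against -0.07 in the 4 pairs that share a mark. Eed has a second, dim probe set (mean 1.75). It was called higher than in hindbrain NSC in tissue (0.22) and in p53 het cultures (0.43, adjusted p = 0.0225 and 0.0476, limma). The chosen probe set had the opposite sign in both, at -0.16 and -0.06.

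**Figure D2:**
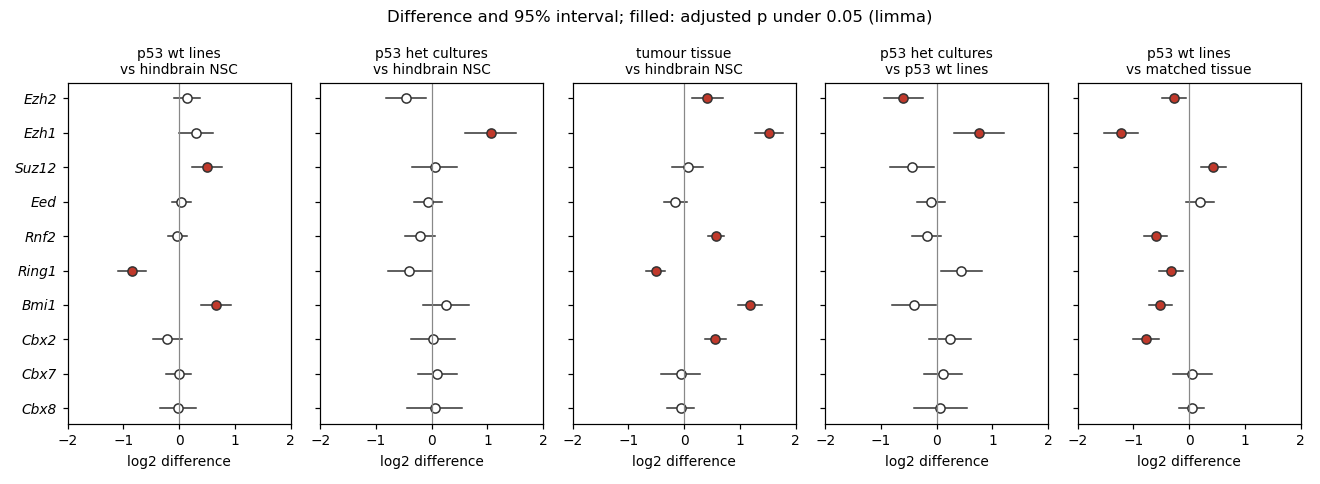
Log2 difference (x axis) with its 95% interval for the 10 genes (y axis) in 5 comparisons (panels); filled points passed an adjusted p of 0.05. Ezh1 lies at 1.53 in tissue and 1.06 in p53 het cultures against hindbrain NSC, and at -1.23 in lines against tissue, while Ring1 is below 0 in all 3 comparisons with hindbrain NSC.

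Rnf2 and Ring1 encode the alternative ubiquitin ligases of PRC1, and they took different courses. Rnf2 read 7.61, 7.76 and 7.82 in hindbrain NSC, 7.57, 7.75 and 7.81 in SVZ cultures, 7.50, 7.68 and 8.05 in the p53 wt lines and 7.52 and 7.53 in the p53 het cultures. In tissue it read 8.12, 8.35 and 8.45, above every culture. It rose 1.49-fold in tissue over hindbrain NSC (0.57 ± 0.07, adjusted p = 4.21e-06, limma), and the lines were 1.52-fold below their tissue (-0.60 ± 0.09, adjusted p = 0.000385, limma), with 8 of 8 pairs lower. In the 4 pairs that do not share a date mark the difference was -0.41 and not called (adjusted p = 0.0611, limma), against -0.79 in the 4 that do. The pair gap was narrow in tumours 49 and 68 (-0.12 and -0.25) and -0.56 to -0.87 in the 6 others. Against hindbrain NSC neither the p53 wt lines (-0.03 ± 0.08) nor the p53 het cultures (-0.21 ± 0.13) passed the test. Rnf2 has 5 probe sets. A second bright one (mean 7.32) gave 0.52 in tissue against hindbrain NSC and -0.51 in lines against tissue, both called. The dim ones (means 2.17 to 2.24) gave 0.02, -0.09 and -0.10 in lines against tissue, none called. In tissue against hindbrain NSC they gave -0.01, -0.0004 and 0.46, only the last called.

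Ring1 was the only member called lower in the p53 wt lines than in hindbrain NSC. It read 5.42, 5.54 and 5.76 in hindbrain NSC (lowest, median and highest of 6) and 5.21, 5.46 and 5.51 in the SVZ cultures. In the p53 wt lines it read 4.23, 4.71 and 5.07, in tissue 4.81, 5.07 and 5.20, and in the p53 het cultures 5.07 and 5.26. Every line and every tissue lay below every hindbrain culture. The lines were 1.79-fold lower (-0.84 ± 0.12, adjusted p = 0.000469, limma) and the tissue 1.42-fold lower (-0.51 ± 0.08, adjusted p = 5.96e-05, limma). Lines were also below their tissue (-0.33 ± 0.10, adjusted p = 0.016, limma), in 7 of 8 pairs, while both samples of tumour 91 read 5.07. That call was lost both in the 4 pairs that share a date mark (-0.24, adjusted p = 0.154) and in the 4 that do not (-0.43, adjusted p = 0.0788, limma). In the p53 het cultures the difference from hindbrain NSC, -0.40 ± 0.18, was not called (adjusted p = 0.118) although the groups did not overlap, and neither was the difference of 0.44 ± 0.17 from the p53 wt lines (adjusted p = 0.0752, limma). Ring1 has 1 probe set, so no second reading was available.

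Bmi1, the partner that activates the PRC1 ligases, rose in steps from NSC over lines to tissue. It read 8.18, 8.30 and 8.53 in hindbrain NSC, 8.25, 8.26 and 8.49 in SVZ cultures, and 8.29 and 8.84 in the p53 het cultures. The p53 wt lines read 8.40, 9.11 and 9.19 and the tissues 9.18, 9.51 and 9.82. Of the lines, 68 and 49 were low at 8.40 and 8.60, and the other 6 lay between 9.08 and 9.19. Lines were 1.58-fold above hindbrain NSC (0.66 ± 0.13, adjusted p = 0.0043, limma) with 1 line inside the NSC range, and tissue was 2.26-fold above (1.18 ± 0.10, adjusted p = 1.35e-07, limma) with no overlap. Lines were 1.44-fold below their tissue (-0.52 ± 0.09, adjusted p = 0.000867, limma), with 8 of 8 pairs lower, a call lost in the 4 pairs without a shared date mark (-0.50, adjusted p = 0.065, limma). The p53 het cultures differed from each other by more than they did from either group, with 0.25 ± 0.20 against hindbrain NSC and -0.40 ± 0.19 against the p53 wt lines (adjusted p = 0.411 and 0.14, limma). The second probe set of Bmi1 gave 0.67, 1.29 and -0.62 for lines against hindbrain NSC, tissue against hindbrain NSC and lines against tissue, and was called in each.

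The CBX genes encode the readers of H3K27me3. Cbx2 read 5.42, 5.55 and 5.94 in hindbrain NSC, 4.99, 5.43 and 5.80 in the p53 wt lines, 5.39 and 5.89 in the p53 het cultures, and 5.99, 6.20 and 6.33 in tissue. Every tissue lay above every culture. It was 1.47-fold higher in tissue than in hindbrain NSC (0.56 ± 0.09, adjusted p = 9.45e-05, limma) and 1.71-fold lower in lines than in tissue (-0.78 ± 0.11, adjusted p = 0.00017, limma), with 8 of 8 pairs lower. Cbx2 has a second, dim probe set (mean 2.86). In tissue against hindbrain NSC it gave 0.20 and was not called (adjusted p = 0.201, limma). In lines against tissue it gave -0.26 and was called (adjusted p = 0.0216, limma). The technical arrays of tumour 27 spanned 0.69 in Cbx2, which limits what its mean shows.

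Cbx7, a reader found in stem and differentiated cells, was dim, with group means of 3.28 to 3.76. In SVZ cultures it read 3.03, 3.28 and 3.52, below all 6 hindbrain cultures (3.55 to 3.74), and the differences of 0.37 ± 0.13 and 0.38 ± 0.13 were not called (adjusted p = 0.325 and 0.227, limma). Among the tissues, 68 and 83, which share a date mark, read 4.23 and 4.24, and the other 6 read 3.20 to 3.61. Cbx8 had the narrowest span, with group means of 4.28 to 4.52, and its samples ranged from 3.84 to 4.74, both ends being p53 wt lines. Its intervals in the 5 comparisons with tumours lay within -0.44 and 0.54.

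**Figure D3:**
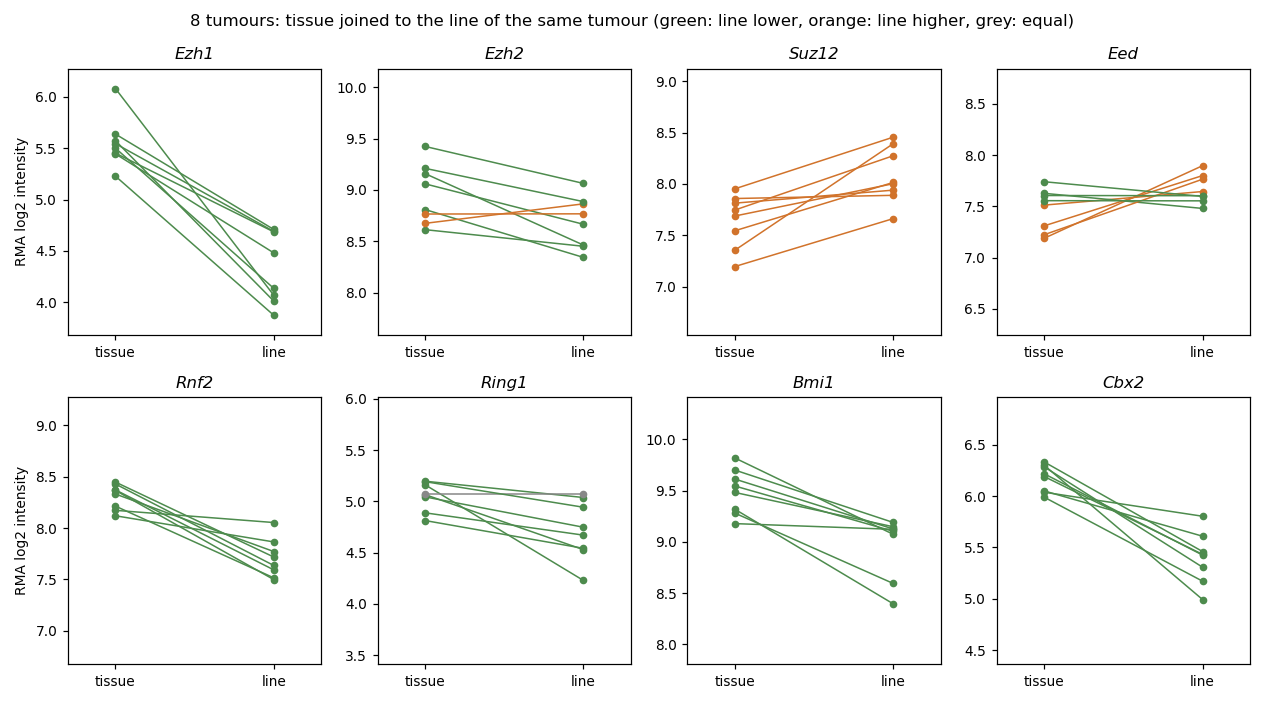
Log2 intensity (y axis) of 8 members in the tissue and the line of each of 8 tumours, joined by a line (green where the line is lower, orange where it is higher, grey where equal). Ezh1, Rnf2, Bmi1 and Cbx2 are lower in all 8 lines, Suz12 is higher in all 8, and Eed goes up in 4 and down in 4.

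Member levels were set beside the level of the other genes of their chromosome, which was taken for each sample as the median difference of the brighter genes of the chromosome from the mean of the 9 NSC, less the same over all brighter genes, with the member left out. Ezh2 lies on chromosome 6, where the 459 other genes stood at 0.48, 0.54 and 0.43 in lines 91, 92 and 9 and at -0.04 to 0.07 in the other 5. These 3 lines had the 3 highest Ezh2 values, 8.89, 9.06 and 8.86. In the tissues the chromosome 6 level ran from 0.00 to 0.41, and Ezh2 was higher where it was higher (Pearson r = 0.89, exact permutation p = 0.00543; Spearman rho = 0.86, p = 0.0107; n = 8 tissues). Without the 2 tissues farthest from the median level r was 0.95, but over the 60 relations computed the adjusted p was 0.0764 for r and 0.214 for rho, and none of the 60 passed 0.05. Suz12 lies on chromosome 11, whose level was 0.45 and 0.43 in lines 74 and 77, the 2 lines with the highest Suz12, and at most 0.13 in the other 6. Rnf2, on chromosome 1, was highest in lines 49 and 68 (8.05 and 7.86), where the chromosome stood at 0.55 and 0.22 against 0.01 to 0.04 in the other 6 lines. Line 49 also had the highest Cbx7 of the lines, 4.14, with chromosome 15 at 0.39, and line 91 the highest Ring1, 5.07, with chromosome 17 at 0.45. Over the 8 lines, however, Cbx7 had a rho of only 0.17, and its r was 0.03 without the 2 farthest lines. Ezh1, also on chromosome 11, was highest in line 77 (4.71). Its r over the 8 lines was 0.65 (exact permutation p = 0.0794) and its rho 0.83 (p = 0.0154, adjusted p = 0.218). Cbx8, on the same chromosome, had r = 0.61 (exact permutation p = 0.124). Cbx2, on chromosome 11 too, did not show this. It read 5.31 and 5.43 in lines 74 and 77, inside the 4.99 to 5.80 of the other lines. Chromosomes 2 and 7, which hold Bmi1 and Eed, varied little between the lines (-0.06 to -0.03 and -0.13 to -0.06).

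These levels come from RNA, and DNA copy number was not measured. With the median of its chromosome removed from each gene in each sample, Suz12 was 0.38 ± 0.10 higher in lines than in hindbrain NSC (adjusted p = 0.0214, limma) and 0.26 ± 0.09 higher than in tissue (0.0348). Ezh2 in tissue against hindbrain NSC was then 0.18 ± 0.09 and no longer called (adjusted p = 0.111, limma), and in lines against tissue -0.23 ± 0.09 (0.0539). In p53 het cultures against p53 wt lines Ezh2 was -0.42 ± 0.13 (0.0178) and Ezh1 0.92 ± 0.18 (0.000833), both still called. Cbx7 was called lower in that comparison only with this step (-0.49), as chromosome 15 stood at 0.61 and 0.59 in the 2 p53 het cultures. Its measured difference was 0.11 and not called (adjusted p = 0.689, limma). The call thus comes from the subtraction and not from a lower reading of Cbx7.

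**Figure D4:**
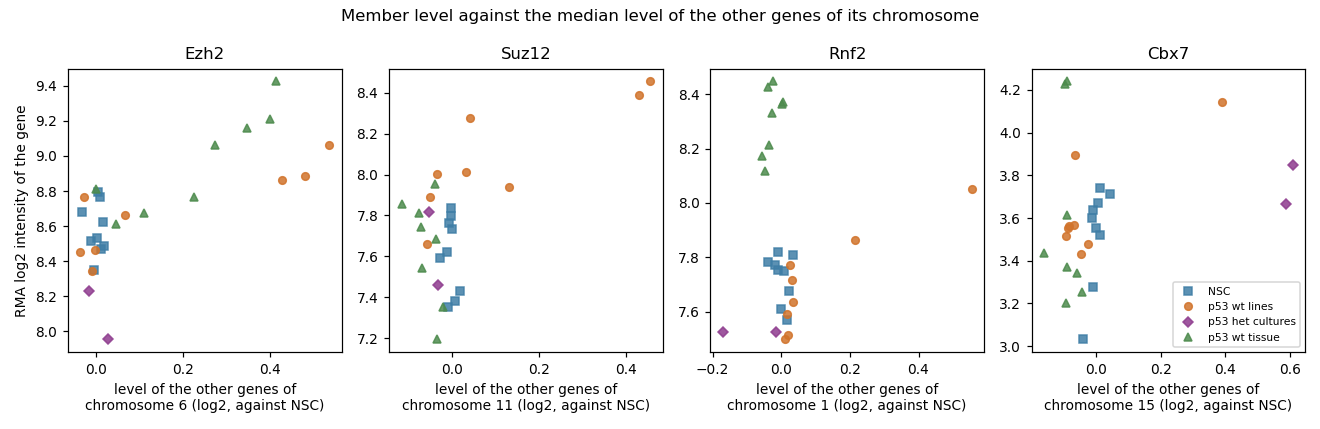
Log2 intensity of Ezh2, Suz12, Rnf2 and Cbx7 (y axis) against the median level of the other genes of chromosome 6, 11, 1 or 15 (x axis, log2 against the NSC mean), with 1 point per sample. The NSC lie near 0 on each x axis, lines 91, 92 and 9 lie at 0.43 to 0.54 on chromosome 6, and the 2 p53 het cultures at 0.59 and 0.61 on chromosome 15.

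Proliferation was described by the mean of 17 markers. Within the 8 tissues that level ran from 8.17 to 8.69, and both Cbx2 (r = 0.90, exact permutation p = 0.00632; rho = 0.71, p = 0.0576) and Ezh2 (r = 0.82, p = 0.0184; rho = 0.81, p = 0.0218) were higher where it was higher. Within the 9 NSC the values were r = 0.80 for Cbx2 (exact permutation p = 0.00764) and 0.72 for Ezh2 (p = 0.0263). Without the 2 samples farthest from the median level, r was 0.76 and 0.78 in the tissues and 0.43 and 0.64 in the NSC, for Cbx2 and Ezh2. Adjusted over the 60 relations these p-values were 0.0764 for Cbx2 in both sets, 0.138 for Ezh2 in tissue and 0.143 in NSC. In the 8 p53 wt lines r was 0.02 for Cbx2 (exact permutation p = 0.971) and 0.28 for Ezh2 (p = 0.493). Without the 2 farthest lines Cbx2 had 0.84, so its value in the lines rests on those 2. No date mark held enough samples of 1 kind for a value within it.

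**Figure D5:**
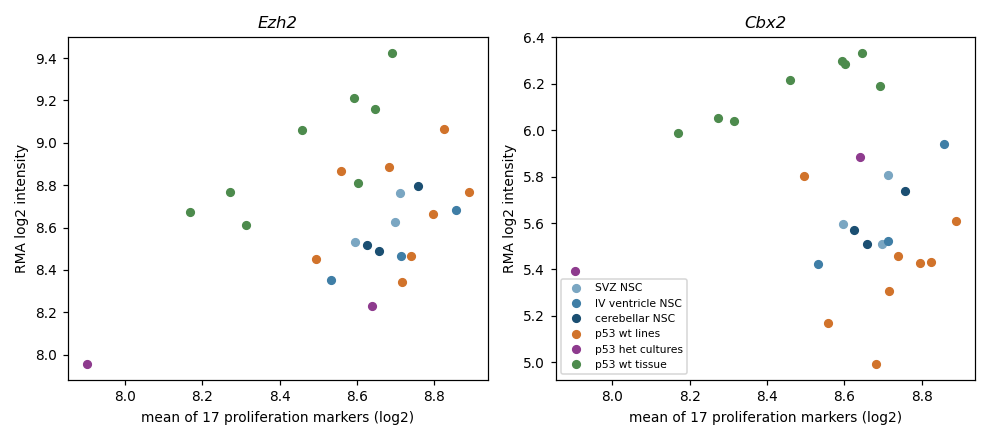
Log2 intensity of Ezh2 and Cbx2 (y axis) against the mean log2 level of 17 proliferation markers (x axis), 1 point per sample, coloured by group. In tissue both genes are higher at higher marker levels (r = 0.82 and 0.90, n = 8), and the 2 p53 het cultures lie lowest in Ezh2 at 7.95 and 8.23.

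Other subunits and opponents of the Polycomb system were read from lists chosen for their roles. Of 8 further PRC2 subunits, 3 were higher and 4 lower in lines than in tissue, with a median difference of -0.10 against 0.06 over all genes. Of all genes, 26.6% were called higher and 23.1% lower there. Phf19, which guides PRC2 to its targets, was 1.91 ± 0.11 higher in lines, while Jarid2 and Mtf2, cofactors that recruit PRC2, were lower (-1.41 ± 0.10 and -0.81 ± 0.09, adjusted p = 4.44e-07, 1.06e-06 and 4.12e-05, limma). Tissue against hindbrain NSC gave the mirror image for these 3, with Phf19 at -1.83, Jarid2 at 1.13 and Mtf2 at 0.89. In that comparison 3 of the 8 subunits were higher and 2 lower, beside 23.1% and 28.0% of all genes. Only Aebp2, a PRC2 cofactor, was called in the p53 wt lines against hindbrain NSC (0.49, adjusted p = 0.037, limma), beside 3.51% of all genes higher and 6.06% lower. In the p53 het cultures Epop, an inhibitory PRC2 subunit, was 1.72 ± 0.33 above the p53 wt lines and Phf19 -0.71 ± 0.16 (adjusted p = 0.000879 and 0.003, limma). That was 1 higher and 1 lower of 8, beside 14.5% and 11.8% of all genes.

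Of 20 further PRC1 subunits measured, 6 were higher and 6 lower in lines than in tissue (median 0.08), beside 26.6% and 23.1% of all genes. Scmh1 and Mga were lower (-1.72 and -1.02) and E2f6 and L3mbtl2 higher (0.78 and 0.73). In p53 het cultures against p53 wt lines 3 subunits were higher and 4 lower, beside 14.5% and 11.8% of all genes. Among them E2f6, the DNA-binding subunit of a variant PRC1, had the largest difference of the 7, at -1.90 ± 0.18 (adjusted p = 6.07e-07, limma): the p53 het cultures read 4.82 and 5.69 and the 8 lines 6.88 to 7.49. Pcgf5, a relative of Bmi1, was 0.86 ± 0.12 higher. Against hindbrain NSC the p53 het cultures had 2 higher and 4 lower, beside 13.8% and 13.0% of all genes. The p53 wt lines had 0 higher and 2 lower (Phc2 at -0.42 and Scmh1 at -0.55), beside 3.51% and 6.06%.

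Of 7 genes for removal of the Polycomb marks, Kdm6a, an H3K27 demethylase, was 1.10 ± 0.17 higher in p53 het cultures than in p53 wt lines (adjusted p = 8.93e-05, limma) and 0.92 ± 0.19 higher in tissue than in hindbrain NSC (0.000869). Asxl2, a cofactor of the H2A deubiquitinase, went the other way in the p53 het cultures, at -0.93 ± 0.16 against the p53 wt lines (adjusted p = 0.000297, limma). Thus 1 of the 7 genes was higher and 1 lower, beside 14.5% and 11.8% of all genes. Asxl2 has a relative, Asxl3. Asxl3 was 3.32 ± 0.22 higher in tissue than in hindbrain NSC and -2.81 ± 0.28 in lines against tissue. The Trithorax and SWI/SNF genes, which oppose Polycomb, had 0 higher and 9 lower of 16 in the p53 het cultures against hindbrain NSC, where 13.8% and 13.0% of all genes were called, with a median of -0.55, led by Arid1a (-1.09), Chd7 (-1.46), Kmt2b (-1.02) and Smarca4 (-0.61). In the p53 wt lines 0 were higher and 2 lower, Smarca4 (-0.38) and Kmt2b (-0.51), beside 3.51% and 6.06% of all genes.

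Cdkn2a, which encodes the p16 and Arf inhibitors and is the best known target of Bmi1, did not follow Bmi1 in a simple order. It read 3.83, 5.15 and 5.44 in hindbrain NSC (lowest, median and highest of 6) and 7.12 and 7.13 in the p53 het cultures. The p53 wt lines spread from 1.38 to 5.94 around a median of 4.44, with lines 92 and 83 (1.38 and 1.62) at or near the reading of an unexpressed gene. The tissues read 1.69, 2.07 and 3.88. Tissue was thus lower than hindbrain NSC (-2.74 ± 0.31, adjusted p = 2.5e-06, limma). Lines were above tissue by 1.68 ± 0.62 (adjusted p = 0.0449, limma), a call that leaving out any of 6 tumours ended (adjusted p = 0.0727 to 0.108). In tumours 92 and 83 the line was lower than its tissue (1.38 against 3.88 and 1.62 against 1.69), and in the others it was higher. The tissue median lies not far above the readings of an unexpressed gene (up to 1.57), so the sizes against tissue are uncertain. The p53 het cultures were 3.21 ± 0.87 above the p53 wt lines (adjusted p = 0.0101, limma), a call lost without tumour 27 or without tumour B (0.0746 and 0.0718). The p53 wt lines did not pass the test against hindbrain NSC (-1.06 ± 0.59, adjusted p = 0.312, limma). Its neighbour Cdkn2b was -1.96, -2.53 and -2.19 in p53 wt lines, p53 het cultures and tissue against hindbrain NSC, called in each.

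The posterior Hox genes, classical targets of Polycomb silencing, were dim, with a mean over 20 genes of 1.85 to 2.44 in every sample, and mostly not called. Of the 20, 18 were not called in lines against tissue and 18 in tissue against hindbrain NSC, and all 20 in p53 wt lines against hindbrain NSC. In the p53 het cultures Hoxa10 read 2.64 and 4.41, and in the p53 wt lines 0.77 to 1.49, which is within the readings of an unexpressed gene, so no size is given for this difference (adjusted p = 2.96e-06, limma). Against hindbrain NSC, 3 of 20 were called higher in the p53 het cultures (Hoxa10, Hoxa7 and Hoxb13) and 0 lower, a share near that of all genes called higher there (13.8%). Against the p53 wt lines 2 were higher (Hoxa10 and Hoxb13) and 1 was lower (Hoxb9, -0.47).

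Over the 27 samples, the profile of Ezh1 was most like those of Vps39, Smarcd2 and Mkrn1 (Pearson r = 0.96, 0.95 and 0.94) and that of Bmi1 most like Sars, Rbfox1 and St6gal1 (0.91, 0.90 and 0.89). Ring1 was most like Nsmce3, Spindoc and Nabp2 (0.85, 0.83 and 0.82). The 3 genes most like Ezh2, Emg1, Cul1 and Bms1 (0.92, 0.88 and 0.87), all lie on chromosome 6 with it. These coefficients run over groups that stand apart and are descriptions of rank only. Among the members themselves Rnf2 and Cbx2 were the most alike (0.82), followed by Bmi1 and Ezh1 (0.75), while Ezh2 and Ezh1 had 0.38.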

How the data were processed

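RNA was measured on Affymetrix arrays with 45101 probe sets. The deposited values are log2 intensities made by the authors with RMA (background correction, quantile normalization and summary over probes), per the submitters' processing notes; its version and the probe set definition: not given in the sources used here. Gene symbols came from the platform annotation: 34958 probe sets carried 1 symbol, 932 several and 9211 none. Array medians lay between 3.166 and 3.324.

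Linear models with moderated variances (limma 3.58.1, run under R 4.3.3) covered all 18194 genes, with Benjamini-Hochberg adjustment, two-sided, and a call at an adjusted p under 0.05. Cultures were fitted together, lines against tissue with the tumour as a block, which comes from the matched labels, and tissue against hindbrain NSC without the other arrays. Deviations of same-numbered NSC cultures correlated at 0.32, 0.25 and 0.32 between IV ventricle and SVZ and at 0.18, 0.34 and 0.17 between cerebellum and SVZ. Between IV ventricle and cerebellum they correlated at 0.38, -0.14 and -0.06. Cultures with different numbers were not correlated, so these values cannot show whether the numbers pair the samples. No source says what a number marks, and the main fit of the NSC did not use it. The fit was tested on simulated data. The text names all 10 members, up to 4 called genes per direction from each other list and comparison, and Cdkn2a; the 3 genes most alike are named for the 4 members with the widest span. Members and lists were chosen with earlier results of these data known. Arrays give no counts, so the number of arrays limits the precision.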

Additional observations from a re-analysis of the deposited data

Results flagged for a closer look

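Ezh2 and Ezh1, the alternative enzymes of PRC2, differed between p53 het and p53 wt tumour cultures by the test of the difference itself. Ezh2 was lower in the p53 het cultures by -0.597 (log2) and Ezh1 higher by 0.757, with both p53 het cultures outside the range of the 8 p53 wt lines in each case. The p53 het group is 2 tumours, and 7 of 9 neural stem cell markers and 5 of 17 proliferation markers were also lower in it. Its 6 oligodendrocyte markers averaged 6.62 against 5.38 in the lines, with 2 called higher and 1 lower. Among them Sox10 stood far higher (10.06 against 4.23), while Olig1 lay the other way (11.04 against 11.95). The p53 het arrays share no date mark with those of the lines. The part of these in the differences was not tested, and date and genotype cannot be told apart. Of 20 groups of 4 to 10 samples examined, none had a sample that stood apart from the rest by Dixon's criterion, which chance meets in about 1 group in 20.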

How the results depend on the processing

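Counts of called members are given as main value first. The number of all genes called is not given for most settings. No change in a member count is therefore read as particular to the members. With single samples left out, 1060 to 1896 of all genes were called in p53 wt lines against hindbrain NSC. For tissue against hindbrain NSC the range was 8730 to 9163 genes. For lines against tissue with single pairs left out it was 8277 to 8663. For p53 wt lines against hindbrain NSC (3) the count was 0 when a 2-fold difference was also required, and 2 to 3 with single samples left out. It was also 2, Suz12 being lost, with the mean of all probe sets and with the date mark as a random block. The same loss occurred with either hindbrain region alone as the reference. For p53 het cultures against hindbrain NSC (1) it was 2 with quantile normalization, 2 with dim genes left out, 2 with only the arrays compared, 2 with the 6 single arrays and tumour as a random block, 4 with chromosome medians removed, and 1 to 2 with single samples left out. For p53 het cultures against p53 wt lines (2) it was 0 at 2-fold, 4 with the 6 single arrays, and 0 to 3 with single samples left out, the 0 being without tumour 27. With chromosome medians removed, p53 het cultures against p53 wt lines had 3, Cbx7 being added. For lines against tissue (7) it was 1 at 2-fold, 4 within the 4 pairs of shared date mark, and 4 in the other 4 pairs. It was 6, Ezh2 being lost, with no replicate block, with arrays centred on their medians and with chromosome medians removed. With single pairs left out it was 6 to 7. For tissue against hindbrain NSC (6) it was 2 at 2-fold, 5 with chromosome medians removed, 5 with cerebellar NSC alone as the reference, and 6 in every leave-out. Between NSC regions it was 0 in every setting, and the replicate block changed no call of a member. With chromosome medians removed, 4 values changed sign that passed the test with or without this step: Cbx7 to -0.486 and Yaf2 to -0.177 in p53 het cultures against hindbrain NSC, and Cbx7 to -0.494 and Yaf2 to -0.031 against p53 wt lines. Member differences near 0 that passed neither test also changed sign. This step and the other 4 pairs were chosen after seeing the data. The cause of these changes was not tested, except that fewer pairs or samples entered where some were left out.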
